A study of Homo sapiens with 8 samples.

Results

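Ribosome biogenesis factors are the proteins that transcribe, modify, cut and fold ribosomal RNA and assemble it with ribosomal proteins into the small (40S) and large (60S) subunits. The group described here is a list of 42 such genes, taken by symbol, and all 42 were present among the 26830 gene symbols of the expression table. The values came from HEK293T cells, a human embryonic kidney line, as labelled. The cells derived from a single clone that carries Cas9, so the cultures are not independent isolates. In all, 3 cultures carried different guide RNAs against METTL16 (sgMETTL16-1, sgMETTL16-2 and sgMETTL16-3), and 1 culture carried a negative control guide (sgNS). METTL16 is an RNA methyltransferase, and the study asked about its effect on translation across the genome. All 4 cultures had been kept with blasticidin (10 µg/ml) and puromycin (2 µg/ml) and were given cycloheximide, which halts elongating ribosomes, at 100 µg/ml for 5 min before collection. From each culture came 1 library of input RNA and 1 of ribosome footprints, which are fragments of 17 to 34 nt shielded by ribosomes, so sgMETTL16 had 3 libraries of each kind and sgNS 1. Values are TPM (a share of the library corrected for transcript length), and values of the sgMETTL16 cultures are listed by guide number throughout.

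Ribosome production starts in the nucleolus, where RNA polymerase I transcribes a long precursor of ribosomal RNA. Small nucleolar RNAs (snoRNAs) of the box C/D class guide methylation of the ribose, and those of the box H/ACA class guide the change of uridine to pseudouridine, each within a particle with its own core proteins. Assembly of the 40S subunit begins in a large complex on the nascent precursor (the small-subunit processome), the 60S subunit follows through its own series of factors, and DEAD-box helicases remodel the RNA on both paths. Many of these genes are known targets of the MYC transcription factor, which binds the E-box sequence CACGTG.

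Promoter sequences were available from RefSeq (GRCh38.p14) for 36 of the 42 genes, each running from 250 bases before to 50 bases after the transcription start. The letters CACGTG, which read the same on both strands, were found in 14 of these 36 promoters (38.9%), against 7.43% of all 27305 promoters and 9.001% of the 15009 promoters of protein-coding genes in the expression table. A match is a description of the letters in this window and not of binding. The promoters of 4 genes that recur in the results below are shown, because their match lies near the start: each sequence runs from 90 bases before to 30 bases after the start on the gene's own strand, with CACGTG in capitals. FBL lies on the minus strand at chr19:39846350-39846469, NOP10 on the minus strand at chr15:34343107-34343226, WDR43 on the plus strand at chr2:28894577-28894696 and GNL2 on the minus strand at chr1:37595908-37596027.
FBL: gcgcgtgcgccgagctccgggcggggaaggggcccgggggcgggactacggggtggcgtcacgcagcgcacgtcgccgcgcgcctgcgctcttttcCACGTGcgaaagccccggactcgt
NOP10: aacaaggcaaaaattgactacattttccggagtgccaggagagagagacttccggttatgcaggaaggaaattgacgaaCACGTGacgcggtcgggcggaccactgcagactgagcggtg
WDR43: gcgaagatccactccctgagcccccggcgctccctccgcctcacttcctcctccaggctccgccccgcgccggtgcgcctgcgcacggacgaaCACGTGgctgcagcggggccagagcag
GNL2: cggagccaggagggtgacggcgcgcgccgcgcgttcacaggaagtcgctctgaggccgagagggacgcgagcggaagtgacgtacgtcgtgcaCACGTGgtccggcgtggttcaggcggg

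The labels were checked before the comparisons. METTL16 itself had 4.72, 5.25 and 4.16 TPM in the sgMETTL16 inputs (4.71 ± 0.545, SD, n = 3), against 5.31 TPM in the sgNS input, a log2 change of -0.61 (SE 0.35, limma adjusted p = 0.465). Edited genes are often still transcribed, so the RNA level is a limited check of a guide. METTL16 footprints were listed at 0 in all 3 sgMETTL16 libraries and at 19.8 TPM in sgNS. Its mean input lay between 1 and 5 TPM. Protein-coding genes at that level were above 0 in a median of 1 of the 4 footprint libraries. Zeros are thus common there, and the footprints are a limited check too. Markers went against the labelled kidney origin: all 12 hepatocyte markers of a short list stood at 10 TPM or more in all 4 inputs, with sums of 11388, 11474 and 7741 TPM in the sgMETTL16 inputs and 6602 TPM in the sgNS input. Of 10 HEK293 markers, 5 were under 1 TPM in every input, NEFL, NEFM and VIM among them were listed at 0, and 2 stood at 10 TPM or more in every input. The HEK293 list summed to 1178, 1327 and 1234 TPM in the sgMETTL16 inputs and to 687 TPM in the sgNS input. Blood and fibroblast markers (3 genes each) were under 1 TPM in every input. The part of cell identity in the results below was not tested.

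In the inputs all 42 genes were above 0 in all 4 libraries. The multifunctional nucleolar proteins led: NCL (nucleolin), with 103, 152 and 61.2 TPM in the sgMETTL16 cultures, against 92.9 TPM in sgNS, and NPM1 (nucleophosmin), with 82.2, 169 and 50.8 TPM in the sgMETTL16 cultures, against 60.6 TPM in sgNS. FBL (fibrillarin), the methyltransferase of box C/D particles, followed with 76.5, 63.2 and 54.9 TPM in the sgMETTL16 cultures, against 82.5 TPM in sgNS. The highest FBL value was that of sgNS and the highest NPM1 value that of sgMETTL16-2, both as deposited and scaled. For NCL the highest was sgMETTL16-2 as deposited and sgNS after scaling (121 scaled TPM in sgMETTL16-2, against 125 in sgNS). NOP10, a small core protein of box H/ACA particles, had 57.6, 75.9 and 53.9 TPM in the sgMETTL16 cultures, against 57.1 TPM in sgNS, and NOP56, a box C/D scaffold protein, had 63.5, 59.8 and 33.2 TPM in the sgMETTL16 cultures, against 43.0 TPM in sgNS. The lowest levels belonged to the processome subunit UTP15, with 2.06, 3.21 and 1.12 TPM in the sgMETTL16 cultures, against 0.940 TPM in sgNS, and to the helicase DDX10, with 2.38, 3.25 and 1.26 TPM in the sgMETTL16 cultures, against 1.05 TPM in sgNS. Together the 42 genes made up 0.384%, 0.460% and 0.363% of protein-coding TPM in the sgMETTL16 inputs and 0.360% in the sgNS input.

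**Figure D1:**
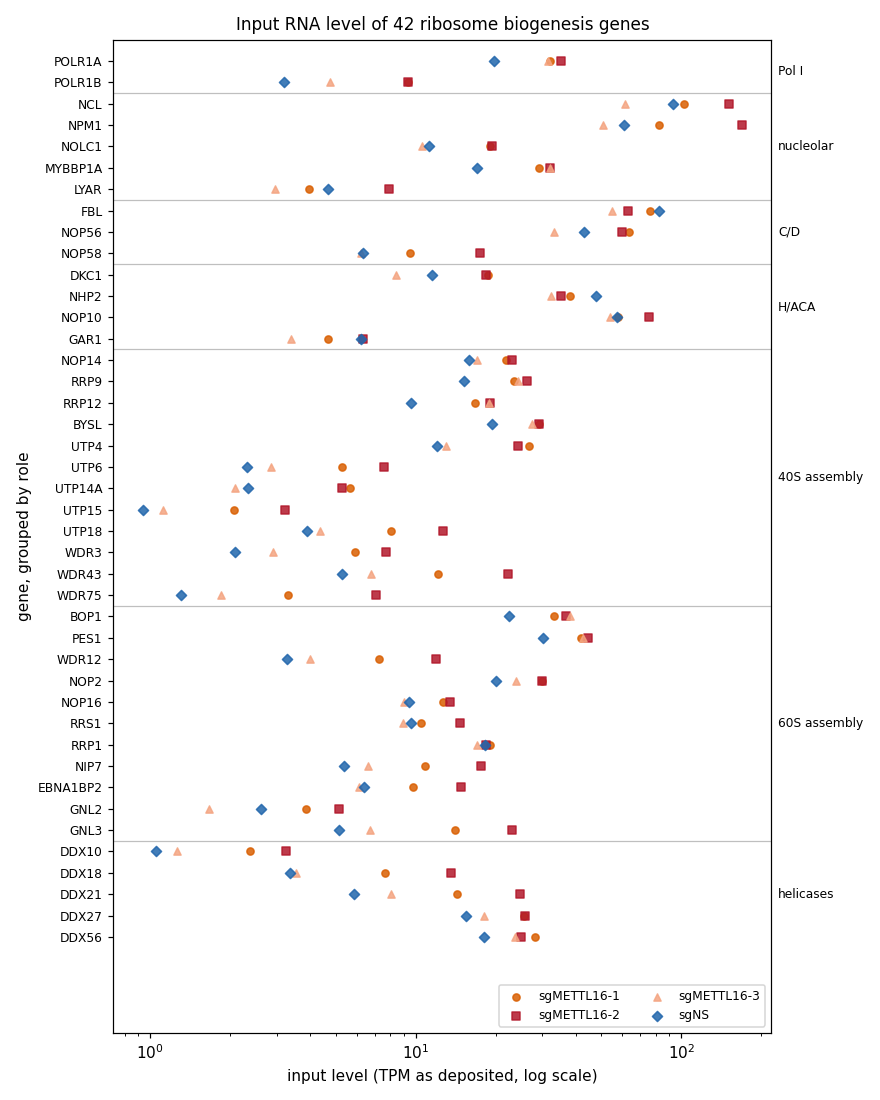
Input RNA level of the 42 genes (TPM as deposited, log axis), grouped by role, with 1 point per culture. As deposited, sgMETTL16-2 was the highest of the 4 for 32 of the 42 genes, and after scaling for 17, with 10 highest in sgMETTL16-3 and 10 in sgNS.

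Read as deposited, the sgMETTL16 inputs sat above the sgNS input for most genes of any kind. The 42 genes exceeded sgNS in 38, 40 and 25 cases in sgMETTL16-1, sgMETTL16-2 and sgMETTL16-3, and among all genes with a mean input of 1 TPM or more the shares above sgNS were 92.9%, 88.5% and 65.0%. The median ratio to sgNS was 1.59, 1.83 and 1.145 for the 42 genes and 1.63, 1.72 and 1.14 for all genes. For this reason each library was divided by a factor, the median over genes of the ratio to the gene's geometric mean, before testing. Changes below are differences of log2(scaled TPM + 1), which understate the change of low genes.

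None of the 42 genes differed between the sgMETTL16 and sgNS inputs at an adjusted p of 0.05 in limma, and 4 had an unadjusted p under 0.05 (FBL, NHP2, GAR1 and GNL3). Over all 10967 genes tested, 2.41% were called higher and 1.34% lower in sgMETTL16. The changes of the 42 genes ran from -0.97 to 0.72 with a median of 0.08, against a median of 0.03 for all genes tested. All 3 sgMETTL16 cultures lay above sgNS for 14 genes (33.3%, against 31.8% of all genes) and all 3 lay below it for 10 genes (23.8%, against 28.8%). With a single sgNS culture, its spread was taken to equal that of the sgMETTL16 group, in which culture and guide vary together. In the input fit, limma replaced the variance of each gene with the trend value for genes at its level. The input p-values and SEs therefore do not reflect a gene's own spread among the cultures. In such bulk RNA, fewer cells that express a gene and less of its RNA per cell cannot be told apart.

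The 2 genes of RNA polymerase I had estimates above 0, as did 52.4% of all genes tested. Of 11 other genes of the polymerase I machinery tested, 5 lay above 0 and 6 below, with a median of -0.38. POLR1A, the largest subunit, had 32.0, 35.2 and 31.5 TPM in the sgMETTL16 cultures, against 19.7 TPM in sgNS (log2 change 0.18, SE 0.36, adjusted p = 0.900), and POLR1B, the second largest, had 9.33, 9.37 and 4.74 TPM in the sgMETTL16 cultures, against 3.20 TPM in sgNS (0.57, SE 0.35, adjusted p = 0.520). The sgNS value was the lowest of the 4 for both, as deposited and scaled, yet neither difference passed the test. After scaling, the sgNS value of POLR1A (26.6 scaled TPM) lay close to that of sgMETTL16-1 (26.7). Among the multifunctional nucleolar proteins the median change was -0.05. MYBBP1A, a nucleolar MYB-binding protein, had the highest estimate there (0.31, SE 0.36, adjusted p = 0.809), with 29.1, 32.0 and 32.0 TPM in the sgMETTL16 cultures, against 17.0 TPM in sgNS. LYAR, a nucleolar zinc-finger protein, had the lowest (-0.48, SE 0.35, adjusted p = 0.619), with 3.97, 7.95 and 2.96 TPM in the sgMETTL16 cultures, against 4.66 TPM in sgNS, and its groups overlapped.

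Among the role classes, box H/ACA and box C/D proteins had the lowest median changes (-0.32 for box C/D). By single gene, NHP2, FBL and GAR1 (-0.83) had the lowest estimates. Those of NOP10 (-0.43), NOP56 and DKC1 were above those of RRP1, LYAR and NCL, which are of other classes. FBL had a log2 change of -0.90 (SE 0.37, adjusted p = 0.202), with all 3 sgMETTL16 values under the sgNS value on either scale. NOP58, the partner of NOP56 in box C/D particles, had 9.52, 17.5 and 6.22 TPM in the sgMETTL16 cultures, against 6.33 TPM in sgNS (0.12, SE 0.35, adjusted p = 0.943). All 4 box H/ACA proteins had estimates under 0, with a median of -0.63, and 5217 of all 10967 genes tested were under 0. NHP2, an RNA-binding core protein, had 38.1, 35.4 and 32.3 TPM in the sgMETTL16 cultures, against 47.8 TPM in sgNS (-0.97, SE 0.36, adjusted p = 0.128), and DKC1 (dyskerin), the pseudouridine synthase, had 18.6, 18.4 and 8.45 TPM in the sgMETTL16 cultures, against 11.5 TPM in sgNS (-0.22, SE 0.35, adjusted p = 0.873). The groups did not overlap for NHP2 and did for DKC1. On the values as deposited 2 of the 4 lay above 0, with a class median of -0.12, and the median was also below 0 when libraries were centred (-0.65) or rescaled over protein-coding genes (-0.37). Without sgMETTL16-3, FBL (-0.97, adjusted p = 0.0470) and NHP2 (-1.10, adjusted p = 0.0239) passed the threshold, while over all settings that left out a culture the adjusted p ran from 0.0470 to 0.981 for FBL and from 0.0239 to 0.947 for NHP2.

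Of the 12 factors of 40S assembly, 11 had estimates above 0, with a median of 0.33, and none passed the test. Over all genes tested 52.4% lay above 0. By culture the class medians were 0.35, 0.49 and 0.12 for sgMETTL16-1, sgMETTL16-2 and sgMETTL16-3. Of 45 other small-subunit genes tested, 29 lay above 0, with a median of 0.06. Among the 12, WDR75, a processome subunit, was highest (0.63, SE 0.34, adjusted p = 0.418), with 3.29, 7.06 and 1.84 TPM in the sgMETTL16 cultures, against 1.31 TPM in sgNS. NOP14 was lowest (-0.18, SE 0.35, adjusted p = 0.903), with 21.8, 23.0 and 17.0 TPM in the sgMETTL16 cultures, against 15.9 TPM in sgNS. As deposited, all 3 sgMETTL16 values exceeded sgNS for NOP14, and its sign turned with the scaling (0.34 as deposited). The 11 factors of 60S assembly had a median of -0.03. GNL3 (nucleostemin), a nucleolar GTP-binding protein, was the highest of all 42 (0.72, SE 0.35, adjusted p = 0.345), with 14.0, 23.0 and 6.75 TPM in the sgMETTL16 cultures, against 5.12 TPM in sgNS, while RRP1 was the lowest of its class (-0.53, SE 0.35, adjusted p = 0.575), with 19.0, 18.4 and 17.0 TPM in the sgMETTL16 cultures, against 18.2 TPM in sgNS. Among the DEAD-box helicases, DDX21, which binds ribosomal precursor RNA and snoRNAs, had 14.3, 24.8 and 8.04 TPM in the sgMETTL16 cultures, against 5.86 TPM in sgNS (0.67, SE 0.35, adjusted p = 0.408) and DDX56 had 28.1, 24.9 and 23.7 TPM in the sgMETTL16 cultures, against 18.1 TPM in sgNS (-0.05, SE 0.36, adjusted p = 0.980, and 0.47 as deposited).

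**Figure D2:**
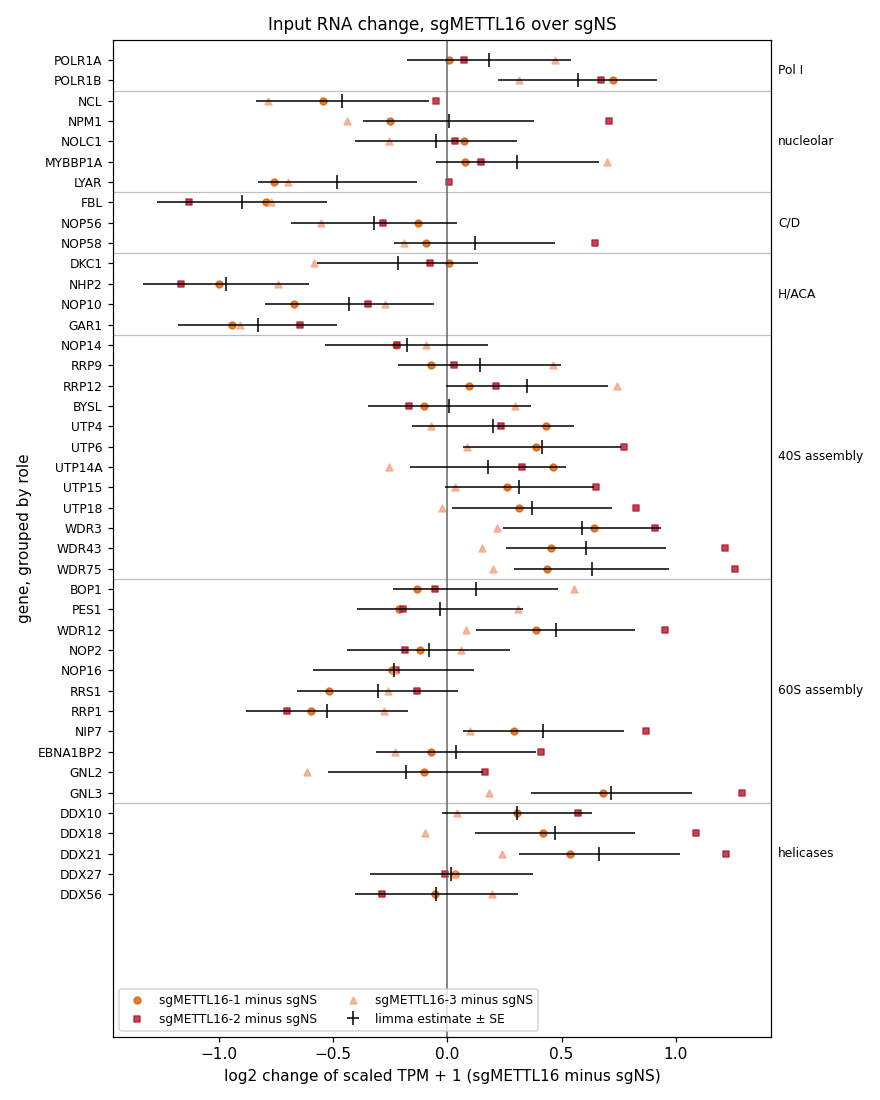
Change of input RNA in sgMETTL16 over sgNS for each gene, as a difference of log2(scaled TPM + 1). Points are single sgMETTL16 cultures minus sgNS, and bars are the limma estimate ± SE. Estimates ran from -0.97 (NHP2) to 0.72 (GNL3), and the sgMETTL16-2 points of GNL3, DDX21, WDR75 and WDR43 lay to the right of the others.

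A wider list held 110 other ribosome biogenesis genes, with 108 in the table and 104 tested in the inputs. Of these, 1 rose and none fell in sgMETTL16 (limma), 9 had an unadjusted p under 0.05, and the median change was 0.05. The gene that rose was RCL1, a factor of 40S processing, with 15.7, 24.7 and 13.5 TPM in the sgMETTL16 inputs, against 4.45 TPM in the sgNS input (log2 change 1.28, SE 0.35, adjusted p = 0.0108).

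Several of the 42 genes carry snoRNA genes within their span, and some of these short RNAs changed. By position in GRCh38.p14, 19 snoRNA genes lie within 6 of the genes (NCL, NOP56, NOP58, DKC1, WDR43 and GNL3), and 9 were abundant enough in the inputs to test. The strand of these snoRNA genes is not given in the table used here. Calls were common among snoRNA genes at large: of 236 tested in the inputs, 33.5% were called higher and 8.47% lower in sgMETTL16, against 1.46% and 1.06% of 9917 protein-coding genes. Among the 103 named SNORA (H/ACA) 51.5% were called higher, and among the 133 named SNORD (C/D) 19.5%. SNORA51 (chr20:2655067-2655198, within NOP56) had 58.1, 59.6 and 67.0 TPM in the sgMETTL16 inputs (61.6 ± 4.76, SD, n = 3), against 8.73 TPM in the sgNS input, and rose by 2.18 on the log2 scale (SE 0.36, limma adjusted p = 3.74e-07). SNORA75 (chr2:231455800-231455936, within NCL) had 19.2, 19.5 and 19.7 TPM in the sgMETTL16 inputs (19.4 ± 0.255), against 2.74 TPM in the sgNS input, a rise of 2.01 (SE 0.35, adjusted p = 1.71e-06). SNORA36A (chrX:154768528-154768659, within DKC1) had 6.73, 7.27 and 6.95 TPM in the sgMETTL16 inputs, against 0.75 TPM in the sgNS input, a rise of 1.89 (SE 0.35, adjusted p = 6.04e-06). These 3 belong to the H/ACA class by name, and the sgMETTL16 cultures were close to each other and far from sgNS in each.

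The box C/D snoRNAs of these genes gave other values. SNORD110, SNORD56, SNORD57 and SNORD86, all within NOP56, did not pass the test (log2 changes 0.44, -0.93, -0.70 and -0.77, adjusted p from 0.136 to 0.685). SNORD82, within NCL, was called lower (-1.08, SE 0.32, limma adjusted p = 0.0241). It had 1.07, 0 and 2.66 TPM in the sgMETTL16 inputs, against 2.38 TPM in the sgNS input, so its values as deposited overlap. SNORD70, within NOP58, had 1.41, 2.07 and 0.58 TPM in the sgMETTL16 inputs and was listed at 0 in the sgNS input (adjusted p = 0.0141). Both calls lie near the floor, and their SEs are those of genes at that level, not of the gene's own spread. The host mRNAs NCL (log2 change -0.46, SE 0.38, adjusted p = 0.684), NOP56 (-0.32, SE 0.36, adjusted p = 0.804) and DKC1 did not pass the test. The difference between a snoRNA and its host was not tested, and TPM divides by length, which magnifies values of such short RNAs.

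In the footprints the 42 genes were seen unevenly. They were above 0 for 35, 34 and 29 genes in the sgMETTL16 libraries and for 29 genes in the sgNS library. A total of 19 genes were above 0 in all 4 libraries, 12 in 3, 4 in 2 and 7 in 1. Of all genes with a mean input of 1 TPM or more, 16.6% were above 0 in all 4 and 25.6% in none. NCL had 389, 455 and 126 TPM in the sgMETTL16 cultures, against 442 TPM in sgNS, and NPM1 had 379, 336 and 139 TPM in the sgMETTL16 cultures, against 479 TPM in sgNS, the highest footprint levels of the group. As deposited both were lowest in sgMETTL16-3, a library whose TPM was low for mRNA as a whole: protein-coding genes held 26.8%, 28.2% and 11.9% of TPM in the sgMETTL16 footprints and 26.9% in the sgNS footprints. After scaling, NPM1 lay below sgNS by log2 changes of -0.19, -0.42 and -0.56 in the sgMETTL16 cultures, and NCL had log2 changes of -0.04, 0.13 and -0.59. FBL had 105, 128 and 74.8 TPM in the sgMETTL16 cultures, against 149.9 TPM in sgNS. As deposited sgNS was the highest of the 4 for FBL, and after scaling sgMETTL16-3 lay above it, by 0.21 on the log2 scale. At the low end LYAR, NHP2, BYSL, WDR75, NOP16, RRS1 and DDX10 were each seen in 1 library, and that library differed: NHP2 had 0, 0 and 39.6 TPM in the sgMETTL16 cultures, against 0 TPM in sgNS, and BYSL had 15.2, 0 and 0 TPM in the sgMETTL16 cultures, against 0 TPM in sgNS.

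**Figure D3:**
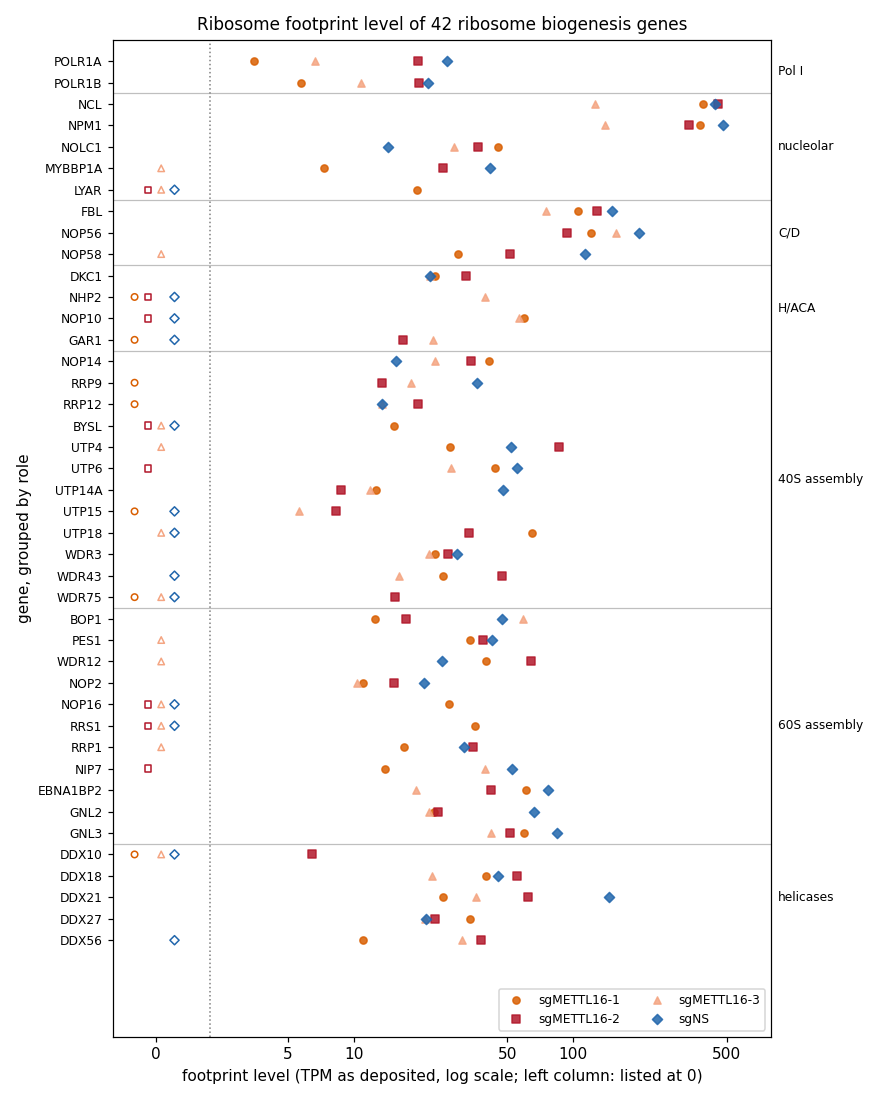
Ribosome footprint level of the 42 genes (TPM as deposited, log axis), with open symbols in the left column for libraries where the gene is listed at 0. NCL and NPM1 stood above 100 TPM in every library, and 23 genes were listed at 0 in at least 1 library.

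The footprint values stepped as small whole numbers would. For each sgMETTL16 library, 1 ratio of sgNS to that library recurred among genes: 1.89, 2.73 and 2.01 for sgMETTL16-1, sgMETTL16-2 and sgMETTL16-3, shared within 0.02 on the natural log by 28.5%, 23.6% and 33.7% of the genes above 0 in both. After division by these ratios, 32 of the 35 genes seen in at least 2 libraries stood to each other in whole numbers up to 12 within 0.005 on the natural log, and for 22 of the 32 the largest number was 5 or less. POLR1A stood as 1, 8 and 2 in the sgMETTL16 libraries and 4 in sgNS, as it would if it held that number of reads or a multiple of it. UTP14A stood as 1, 1 and 1 in sgMETTL16 and 2 in sgNS, NOP2 as 1, 2 and 1 in sgMETTL16 and 1 in sgNS, and DDX18 as 5, 10 and 3 in sgMETTL16 and 3 in sgNS. NCL, NPM1 and NOP10 did not stand in such numbers. Depth is not given with TPM, so no counting interval was computed.

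None of the 42 genes differed in footprints between sgMETTL16 and sgNS at an adjusted p of 0.05 in limma, with 4 at an unadjusted p under 0.05. Over the 9297 genes tested, 0.667% were called higher and 5.84% lower, and of these 605 calls 543 were listed at 0 in all 3 sgMETTL16 libraries and 61 at 0 in sgNS. The median change was -0.20 for the 42 genes and 0.85 for all genes tested. A gene at 0 in sgNS can only have an estimate above 0, so zeros enter these medians. By culture the medians were -0.18, 0 and 0.20 for the 42 genes and 0, 0 and 0 for all genes. With genes above 0 in all 4 footprint libraries alone, they were -0.25 for 19 of the 42 and -0.10 for all 1870. WDR43, a processome subunit, came nearest (adjusted p = 0.0612), with 25.6, 47.4 and 16.1 TPM in the sgMETTL16 cultures, against 0 TPM in sgNS, where it is listed at 0. It passed with a pseudocount of 0.1 (adjusted p = 0.0348) and after rescaling over protein-coding genes (adjusted p = 0.0367), and did not pass in the other settings (adjusted p from 0.0631 to 0.594). DDX56 had 10.98, 38.1 and 31.1 TPM in the sgMETTL16 cultures, against 0 TPM in sgNS, where it is also listed at 0 (adjusted p = 0.350).

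NOLC1, a nucleolar chaperone of snoRNA particles, had 45.5, 36.8 and 28.6 TPM in the sgMETTL16 cultures, against 14.4 TPM in sgNS (log2 change 1.74, SE 0.48, adjusted p = 0.352). NOP14 had 41.2, 34.3 and 23.3 TPM in the sgMETTL16 cultures, against 15.6 TPM in sgNS (1.45, SE 0.42, adjusted p = 0.381). In whole-number terms NOLC1 stood as 6, 7 and 4 in sgMETTL16 and 1 in sgNS, and NOP14 as 5, 6 and 3 in sgMETTL16 and 1 in sgNS. The groups did not overlap for either gene, and both estimates turned negative when libraries were centred on the median gene, which is at 0 in sgNS and sgMETTL16-3. Of 101 other ribosome biogenesis genes tested, none was called higher and 3 were called lower (TWISTNB, TAF1B and DDX51), each listed at 0 in all 3 sgMETTL16 footprints, against 14.6, 25.2 and 12.1 TPM in sgNS.

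Translation efficiency, the footprint level relative to the input level, was tested as an interaction over all 8 libraries. None of the 42 genes passed in limma, 2 had an unadjusted p under 0.05 (WDR43 and DDX56), and 0.075% of the 8002 genes tested were called higher and 0.075% lower, each with a whole group at 0 in the footprints. The median change was -0.27 for the 42 genes and 0.40 for all genes, and zeros in the footprints enter both. By culture the medians were -0.20, 0.31 and -0.04 for the 42 genes and 0.07, 0.30 and -0.25 for all genes. WDR43 had an adjusted p of 0.178, which became 0.0339 with a pseudocount of 0.1 and 0.0447 after rescaling over protein-coding genes, but 0.355 as deposited, 0.582 with a pseudocount of 5 and 0.744 with the culture as a block. DDX56 (adjusted p = 0.326), NOLC1 (1.72, SE 0.87, adjusted p = 0.685) and DDX21 (-2.09, SE 1.11, adjusted p = 0.742) followed. DDX21 had 25.5, 62.0 and 36.1 TPM in the sgMETTL16 cultures, against 145 TPM in sgNS, so that sgNS was the highest of the 4, while its input in sgNS was the lowest of the 4. No other ribosome biogenesis gene of 98 tested was called (10 at an unadjusted p under 0.05).

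The 4 footprint libraries were then set against the 4 inputs, all cultures together, to show which of the 42 mRNAs had more or fewer footprints for their RNA level relative to abundant genes. GNL2 and DDX18 were higher in footprints than in input, and 8 genes were lower: BYSL, NOP2, POLR1A, NHP2, NOP16, RRS1, MYBBP1A and NOP10. Over the 8002 genes tested, 2.51% were called higher and 36% lower. The median difference was -0.84 for the 42 genes and -1.54 for all genes tested. Of the 42, 12 lay above 0 (28.6%, against 16.4% of all genes) and 30 below.

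GNL2, a GTPase whose yeast counterpart acts in maturation and export of the 60S precursor, had 23.2, 24.1, 21.9 and 65.9 TPM in the footprints of sgMETTL16-1, sgMETTL16-2, sgMETTL16-3 and sgNS, against 3.87, 5.13, 1.66 and 2.62 TPM in their inputs. The difference was 1.88 on the log2 scale (SE 0.56, adjusted p = 0.0245), above 0 in 4 of 4 cultures. In whole-number terms the GNL2 footprints stood as 2, 3 and 2 in sgMETTL16 and 3 in sgNS. DDX18, a helicase of 60S assembly, had 39.99, 55.5, 22.6 and 45.4 TPM in the footprints of sgMETTL16-1, sgMETTL16-2, sgMETTL16-3 and sgNS, against 7.66, 13.5, 3.53 and 3.36 TPM in their inputs (1.40, SE 0.49, adjusted p = 0.0436), also above 0 in 4 of 4 cultures. With the culture as a block GNL2 had an adjusted p of 0.0764 and DDX18 of 0.125, and leaving out any 1 culture also left both above 0.05 (adjusted p from 0.0653 to 0.110 for GNL2 and from 0.1005 to 0.135 for DDX18). NPM1 (0.70, SE 0.36, adjusted p = 0.144) and the processome subunit WDR3 (1.29, SE 0.53, adjusted p = 0.0787) were above 0 in 4 of 4 cultures without passing.

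Of the genes called lower, NOP2, a methyltransferase that acts on large-subunit ribosomal RNA, was seen in every footprint library. It had 10.99, 15.2, 10.4 and 20.8 TPM in the footprints of sgMETTL16-1, sgMETTL16-2, sgMETTL16-3 and sgNS, against 29.8, 29.8, 23.9 and 20.1 TPM in their inputs (-1.98, SE 0.48, adjusted p = 0.0112). POLR1A was also seen in every footprint library, with 3.52, 19.5 and 6.64 TPM in the sgMETTL16 cultures, against 26.6 TPM in sgNS (-2.45, SE 0.61, adjusted p = 0.0123), while its inputs lay between 19.7 and 35.2 TPM. Ranked by estimate among all genes tested, NOP2 stood at percentile 40.3 and POLR1A at percentile 30.5. BYSL (bystin), a factor of 40S maturation, had the lowest estimate (-4.53, SE 0.81, adjusted p = 0.00394), with footprints in sgMETTL16-1 alone. NHP2 (-4.46, adjusted p = 0.0167), NOP16 (-3.14, adjusted p = 0.0241) and RRS1 (-3.02, adjusted p = 0.0355) were likewise seen in 1 footprint library each, and none of these 3 passed in any fit that left out a culture and still tested it (adjusted p from 0.0783 to 0.0865 for NHP2, 0.106 to 0.127 for NOP16 and 0.143 to 0.165 for RRS1). MYBBP1A (-2.71, adjusted p = 0.0375) was listed at 0 in 1 footprint library and NOP10 (-3.73, adjusted p = 0.0458) in 2. The calls of NOP2 and POLR1A were lost without sgMETTL16-1 (adjusted p = 0.0581 and 0.05003), that of POLR1A also without sgMETTL16-3 (0.0616), that of MYBBP1A without any 1 sgMETTL16 culture (0.0708 to 0.129) and that of NOP10 without sgMETTL16-1, sgMETTL16-2 or sgNS (0.0690 to 0.173). BYSL passed in the 3 such fits that tested it (0.0244 to 0.0362). NOP10, NHP2 and the other box H/ACA proteins all had estimates under 0, with a median of -2.39. Only 16.4% of all genes tested lay above 0, and 2 of the 4 (DKC1 and GAR1) lay above the median of all genes.

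The 8 lower calls rest on the scaling. All 8 kept a negative sign with the values as deposited, centred on the median gene or rescaled over protein-coding genes, but 1, 0 and 0 of the 42 were then called lower. GNL2 was called in all 3 of these settings. DKC1 (-0.31), FBL (-0.51) and POLR1B (-0.09) did not pass and changed sign with the scaling. NOP56 (0.30, SE 0.47, adjusted p = 0.638) and DDX56 (-2.05, SE 1.00, adjusted p = 0.127) did not pass either. Among 98 other ribosome biogenesis genes, 4 were higher (EMG1, GTPBP4, SBDS and RSL24D1) and 19 lower, with a median of -0.84.

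**Figure D4:**
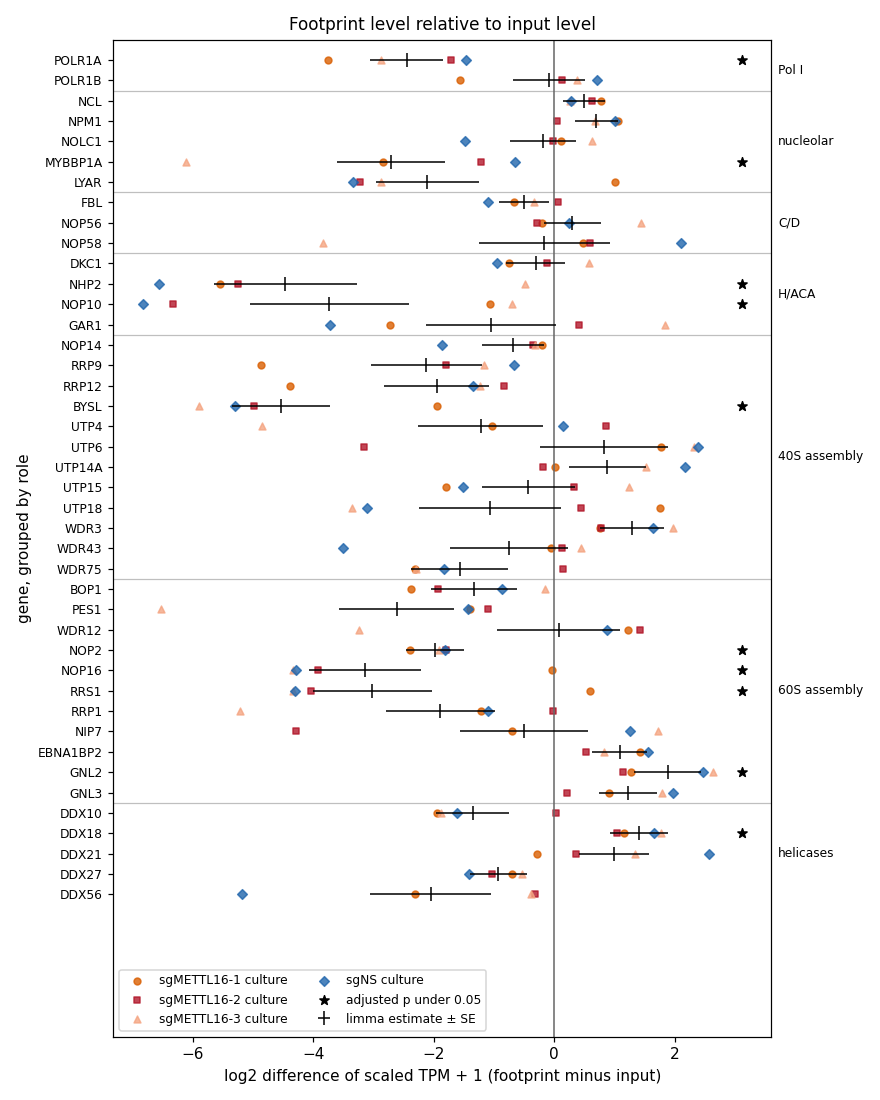
Footprint minus input level of each gene as a difference of log2(scaled TPM + 1), with 1 point per culture, the limma estimate ± SE, and a star where the adjusted p is under 0.05. GNL2 and DDX18 lay above 0 in all 4 cultures, and the points of BYSL, NHP2 and NOP10 were spread over several log2 units because the genes are listed at 0 in some footprint libraries.

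Within the sgMETTL16 inputs the 42 genes split by guide. After scaling, 27 were higher in sgMETTL16-2 than in sgMETTL16-3 and 15 were lower. Of all 10967 genes with a mean input of 1 TPM or more, 5085 were higher and 5875 lower. The differences of the 42 genes ran from -0.61 to 1.19 (median 0.33, SD 0.58), against a median of -0.07 and an SD of 0.49 over all those genes. DDX18, NPM1, GNL3 and DDX21 were at the upper end, and BOP1, MYBBP1A, RRP12 and PES1 at the lower end. The 2 sides were also compared by values of another culture, which this split did not use, among the genes seen in its footprints. Of 29 genes seen in the sgNS footprints, the 11 that were lower in sgMETTL16-2 had footprint to input ratios of TPM in sgNS from 0.981 to 2.45 (median 1.41). The 18 that were higher in sgMETTL16-2 had ratios from 1.28 to 25.2 (median 10.9), and 16 of them, all but DKC1 and NOLC1, exceeded the highest of the 11. Genes listed at 0 in the sgNS footprints were left out, so 18 of the 27 and 11 of the 15 entered. The smallest sgNS footprint value above 0 among the 42 genes was 13.4 TPM (RRP12). A gene of low input could thus enter only with a high ratio, and this comparison cannot separate the ratio from that filter.

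Across the 29 genes the correlation of the 2 measures was r = 0.82 (Spearman rho = 0.74). Over 3977 protein-coding genes the same measures gave r = 0.67 (rho = 0.69). With the ratio taken from sgMETTL16-1, 35 of the genes gave r = 0.78 and 5056 protein-coding genes gave r = 0.64. These are correlations across genes, which are not independent replicates, and the 2 measures come from different libraries but share the transcript annotation. The floor that the filter sets on the ratio of low-input genes holds for these correlations too. The input difference had r = -0.48 with the log2 mean input level over 42 genes and had r = 0.03 with the GC content of the promoter over 36 genes. Transcript length and base composition were not measured here.

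**Figure D5:**
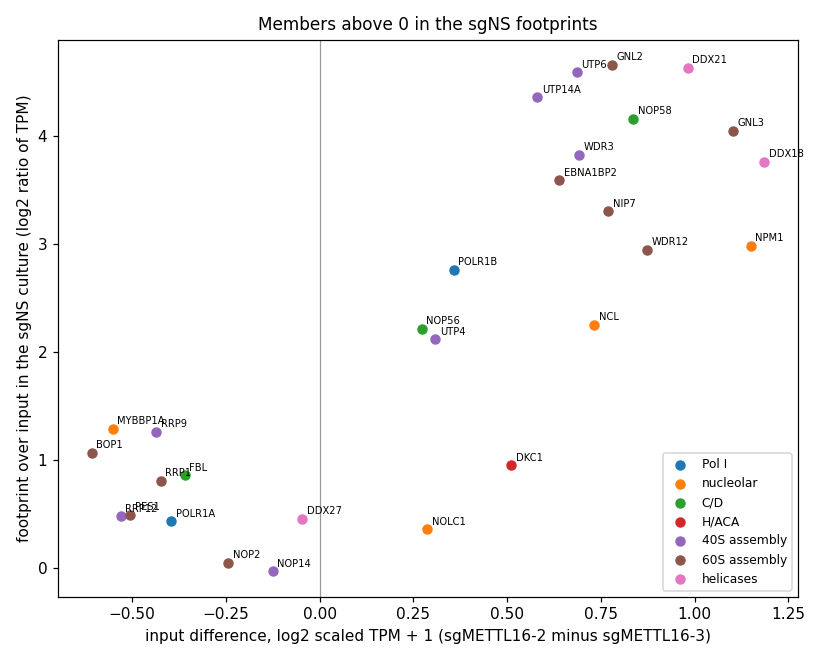
Footprint to input ratio in the sgNS culture (log2 of the TPM ratio) against the input difference of sgMETTL16-2 and sgMETTL16-3 (log2 scaled TPM + 1), 1 point per gene, coloured by role, for the 29 genes above 0 in the sgNS footprints. The 11 genes left of 0 all had ratios under 2.45, and 16 of the 18 genes right of 0 lay above them.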

How the data were processed

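The deposited table holds TPM per gene symbol in 8 libraries. Per the submitters' processing notes, the authors used RSEM 1.2.31 and STAR, with no STAR version in the sources used here, on GRCh38, and per the labels' protocols libraries were depleted of ribosomal RNA and read as 51-base single reads. TPM holds no read totals, so depth is unknown.

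Gene places came from RefSeq (GRCh38.p14): 23987 symbols matched by name, 1395 by older names, and 1448 had no match. Libraries were scaled by median-of-ratios factors (10915 genes for inputs, 678 for footprints, 647 for fits of both kinds). limma 3.58.1 (R 4.3.3) with an intensity trend was fitted to log2(scaled TPM + 1) over genes with a mean of 1 TPM or more, two-sided, with Benjamini-Hochberg adjustment over all genes tested and a threshold of 0.05. The fits were also run on simulated data with planted changes in abundant genes and the same normal noise for every gene. That simulation did not imitate the whole-number steps of the sparse footprints, so it does not check the calls there.

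The labels tie each input to the footprints of the same culture. The pairing check, the correlation of same-numbered deviations from the group means over 8002 genes, gave 0.05, -0.01 and 0.01 for sgMETTL16-1, sgMETTL16-2 and sgMETTL16-3. Pairs of different numbers gave -0.06 to 0.04, so the check did not tell matched from unmatched pairs. A fit with the culture as a block was an alternative.

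Genes named with a test were the highest and lowest of each role class and, among the genes past the threshold, the 10 with the smallest p (inputs, and footprints against inputs), or the 4 with the smallest p (footprints, translation efficiency). Genes and lists were chosen with earlier results of these data known. Alternatives were other scalings, pseudocounts (0.1 and 5), filters, no intensity trend and leaving out each culture.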

Additional observations from a re-analysis of the deposited data

How the results depend on the processing

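Both the number of genes called over the whole table and the medians and calls of the 42 genes moved with the settings. The cause was not tested in any case below, except where fewer samples or genes entered. In the inputs 411 genes were called, and 23 as deposited, 73 with no filter, 268 with a mean of 10 TPM or more and 163 to 428 when a culture was left out. The median change of the 42 genes was 0.57 as deposited, 0.39 rescaled over protein-coding genes and -0.031 with a mean of 10 TPM or more (27 genes). Leaving out a culture gave 0.03 to 0.09, with 0 to 2 of the 42 called lower. Signs turned for DKC1 (0.30 as deposited, 0.081 rescaled), NOP14 (0.34 and 0.13) and DDX56 (0.47 and 0.26), and without sgMETTL16-2 for NOP58 (-0.14, and up to 0.27 without another) and DDX56 (0.074).

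In the footprints 605 genes were called, 138 with a mean of 10 TPM or more, and 0 when centred, without the intensity trend, with genes above 0 in all 4 footprints and without any 1 sgMETTL16 culture. The median of the 42 genes was -0.68 as deposited, -2.81 centred and -0.47 with a mean of 10 TPM or more. Rescaling and the pseudocount of 0.1 each called 1 of the 42 higher (WDR43). NOLC1 (-0.85) and NOP14 (-1.13) turned when centred. For translation efficiency 12 genes were called, 522 rescaled, 468 with a pseudocount of 0.1, 829 with no filter, 54 with a mean of 10 TPM or more, and 0 when centred, without the trend, with genes above 0 in all 4 footprints, and without any 1 sgMETTL16 culture. The median of the 42 genes was -1.20 as deposited, 0.088 centred, -0.70 rescaled and -0.21 to 0.19 when a culture was left out, and rescaling and the low pseudocount each called 1 gene higher.

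For footprints against inputs 3082 genes were called, 565 as deposited, 290 centred, 565 rescaled, 11240 with no filter, 979 with a mean of 10 TPM or more, 1053 with genes above 0 in all 4 footprints and 1160 to 1710 when a culture was left out. Of the 42 genes, 2 were higher and 8 lower. The pairs of counts (higher, lower) were 1 and 1 as deposited, 4 and 0 centred, 7 and 0 rescaled, 1 and 5 with a pseudocount of 0.1, 1 and 3 with a mean of 10 TPM or more, and 5 and 3 with genes above 0 in all 4 footprints. A pseudocount of 5 and no filter each gave 5 higher. Leaving out a culture gave 0 to 1 higher and 0 to 4 lower. The median was 0.10 as deposited, 0.84 centred, -0.18 rescaled, -1.47 and -0.37 with pseudocounts of 0.1 and 5, 0.30 with genes above 0 in all 4 footprints, and -0.93 to -0.50 when a culture was left out. POLR1B, FBL and DKC1 turned as deposited (0.97, 0.69 and 0.82), centred (1.71, 1.43 and 1.56) and rescaled (1.10, 0.74 and 0.91), POLR1B without sgMETTL16-1 (0.36, and down to -0.43 without another) and NOP56 without sgMETTL16-3 (-0.045, and up to 0.42 without another).

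With the culture as a replicate block, 0 genes were called for translation efficiency and 2694 for footprints against inputs, and 0 of the 42 were called higher and 9 lower.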

Other observations

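The snoRNA genes within the span of the 42 genes also had values in the footprint libraries, which were not tested. SNORD110, within NOP56, had 9878, 39272 and 15849 TPM in the sgMETTL16 footprints, against 8297 TPM in the sgNS footprints, while its inputs had 33.2, 46.8 and 45.2 TPM in sgMETTL16 and 20.7 TPM in sgNS. SNORD69, within GNL3, had 674, 2289 and 5483 TPM in the sgMETTL16 footprints, against 3955 TPM in the sgNS footprints, and was under 1 TPM in every input. SNORA51, which rose in the sgMETTL16 inputs, was seen in the footprints of sgMETTL16-2 (413 TPM) and sgNS (577 TPM) and listed at 0 in the other two libraries. SNORA36A was listed at 0 in all 4 footprint libraries.

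Among genes with a mean input from 1 to under 5 TPM, 3 of 8 ribosome biogenesis genes were above 0 in all 4 footprint libraries, against 8.37% of 4063 protein-coding genes. From 20 to under 50 TPM the values were 5 of 11, against 28.8% of 1426 protein-coding genes. At 50 TPM or more they were 3 of 4, against 52.8% of 792 protein-coding genes. The protein-coding genes include the ribosome biogenesis genes, and the differences were not tested.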
